A study of Mus musculus with 12 samples.

Results

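A set of 8 transcripts of the endothelin and renin-angiotensin systems was followed in mouse heart: Edn1, Edn3, Ednra, Ednrb, Ece1, Agt, Agtr1a and Ace. They were chosen by gene symbol, as 8 of the 16246 genes listed in any of the 4 deposited tables, and all 8 had a row in every table. The series holds polyA RNA sequencing of 12 heart samples, 3 in each of 4 groups, all from C57Bl/6J males aged 12 weeks. Control diet sham and control diet TAC mice ate a diet that held all essential amino acids; BCAA-free sham and BCAA-free TAC mice ate one lacking leucine, isoleucine and valine, the branched-chain amino acids (BCAA). Feeding began 4 days before surgery, and hearts were taken 2 weeks after sham surgery or transverse aortic constriction (TAC), which narrows the aorta so that the left ventricle ejects against a higher pressure. The labels name no engineered allele in any group. Whether hearts were pooled within a sample is not stated in the labels, so each p-value speaks of the spread among these libraries, which may be technical.

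Endothelins are short peptides cut from larger precursors by endothelin-converting enzymes; they act through the A-type receptor, which constricts vessels and promotes growth of heart muscle cells, and the B-type receptor, which on endothelium releases vasodilators and clears the peptide. In the renin-angiotensin system, angiotensinogen is cleaved by renin to angiotensin I, which angiotensin-converting enzyme (Ace) turns into angiotensin II. Angiotensin II and endothelin 1 both act on receptors coupled to Gq proteins, and both systems are known for raising blood pressure and for roles in hypertrophy and fibrosis of the pressure-loaded heart.

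Values are normalized read counts within the table of a comparison, log2 fold changes are given ± SE, and a gene was called where the adjusted p was under 0.05 (limma with Benjamini-Hochberg adjustment over all genes tested). The reads behind 1 member in 1 library ran from 7 (Edn3, BCAA-free sham replicate 2) to 6647 (Ace, control diet TAC replicate 3), and library totals from 13847107 to 52065900 reads over the genes of a table. Acta1, a fetal-type sarcomere gene used as a marker of load, rose after TAC on both diets, by 2.73 ± 0.31 (adjusted p = 0.0217) on the control diet and by 1.53 ± 0.13 (adjusted p = 0.00199) on the BCAA-free diet on the log2 scale. Its level also differed between the diets. On 1 scale for all libraries its mean was 11611 in control diet sham, 76577 in control diet TAC, 4241 in BCAA-free sham and 12179 in BCAA-free TAC. The BCAA-free TAC mean thus lay near that of control diet sham. In bulk tissue, fewer cells of a type and less RNA per cell cannot be told apart.

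Promoter sequences are shown for Edn3, Ednrb and Ace, the 3 members called lower on the BCAA-free diet after TAC. The set of RefSeq promoters used here (GRCm38.p6) held a start for 7 of the 8 members and had no entry for Agtr1a. All 8 are protein-coding genes; on GRCm38 (GENCODE M21) the 3 shown span chr2:174760619-174784042 (Edn3), chr14:103814625-103844402 (Ednrb) and chr11:105967945-105989964 (Ace). The others lie at chr13:42301476-42307990 (Edn1), chr8:77663031-77724464 (Ednra), chr4:137862237-137965229 (Ece1), chr8:124556534-124569706 (Agt) and chr13:30336441-30382867 (Agtr1a). Each line holds the 250 bases before the start, 5′ to 3′ on the gene's strand, with motif matches in capitals. The Edn3 window lies at chr2:174760369-174760618 on the plus strand, Ednrb at chr14:103843702-103843951 on the minus strand and Ace, at the first of its 2 RefSeq starts, at chr11:105967698-105967947 on the plus strand. The Ednrb window falls inside the GENCODE span above, which reaches further 5′ than the RefSeq start used.
Edn3: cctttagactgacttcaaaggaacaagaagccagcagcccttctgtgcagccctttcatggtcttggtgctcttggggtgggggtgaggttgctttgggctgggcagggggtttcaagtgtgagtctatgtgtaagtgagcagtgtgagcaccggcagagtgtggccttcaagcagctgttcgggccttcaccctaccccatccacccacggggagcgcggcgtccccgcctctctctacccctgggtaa
Ednrb: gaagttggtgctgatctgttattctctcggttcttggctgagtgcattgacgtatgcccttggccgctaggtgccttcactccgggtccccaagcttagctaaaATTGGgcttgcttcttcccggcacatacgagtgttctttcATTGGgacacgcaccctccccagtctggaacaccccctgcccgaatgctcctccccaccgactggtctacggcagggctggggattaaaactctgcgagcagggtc
Ace: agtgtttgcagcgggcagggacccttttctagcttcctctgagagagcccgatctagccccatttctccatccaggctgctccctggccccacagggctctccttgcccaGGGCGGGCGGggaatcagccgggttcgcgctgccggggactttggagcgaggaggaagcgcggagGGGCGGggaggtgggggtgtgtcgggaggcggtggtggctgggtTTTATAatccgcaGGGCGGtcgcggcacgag
On both strands 6 motifs were searched, namely the TATA box TATAAA, the GATA motif GATAA, the AP-1 motif TGANTCA, the E-box CACGTG, the GC box GGGCGG and the CCAAT box. The Ace window holds GGGCGG 4 times, first 140 bases before the start, with a pair of the matches overlapping each other, and TATAAA on the opposite strand from 31 bases before the start. Ednrb has CCAAT on the opposite strand 2 times, beginning 146 and 106 bases before the start. None of the 6 motifs was in the Edn3 window. Of 32851 RefSeq windows of this length, 32.7% hold GGGCGG, 33.8% the CCAAT box, 12.4% the TATA box, 22.6% the GATA motif, 6.75% the AP-1 motif and 6.02% the E-box. A chromosome that holds no member was left out of this count. A match is a description of the letters and no more. At the second Ace start, not shown, CCAAT was found on the opposite strand 25 bases before the start.

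Levels per kilobase of the longest transcript put the converting enzymes and Agtr1a high and the ligands low. On 1 scale for all 12 libraries, Ece1 was the most abundant in control diet sham hearts at 621 ± 92.0 (SD, n = 3) normalized counts per kilobase, followed by Agtr1a at 560 ± 115, whose range overlapped that of Ece1. Ace stood at 404 ± 35.4. Ednra and Ednrb, at 219 ± 49.0 and 215 ± 62.4, did not differ beyond their spread. The ligand transcripts were scarce: Edn1 ran from 42.1 to 62.4. Edn3, the lowest member in all 4 groups, stood at 17.8 ± 0.257, below Edn1 without overlap. Agt, from 65.5 to 1028, had no clear place in the order.

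After TAC on the control diet the order per kilobase began with Ace at 934 ± 306, whose range overlapped that of Ece1 at 687 ± 49.2. Agtr1a (416 ± 106) and Ednrb (345 ± 59.2) overlapped each other and lay above Ednra, which ran from 233 to 264. Edn1 (90.1 ± 41.6) and Agt (85.1 ± 28.5) did not differ beyond their spread, and Edn3 followed at 56.4 ± 3.45, within reach of the lowest Edn1 library. In BCAA-free sham hearts Ece1 was at 829 ± 56.6, Agtr1a at 657 ± 82.6, Ace at 356 ± 29.4, overlapping Ednra at 311 ± 57.1, and Ednrb at 174 ± 20.7. Agt (99.0 ± 17.7), Edn1 (70.7 ± 4.70) and Edn3 (8.89 ± 3.06) were lowest there. In BCAA-free TAC hearts Ece1 (779 ± 76.9) and Agtr1a (717 ± 105) overlapped, followed by Ace (490 ± 58.1), Ednra (301 ± 31.8), Ednrb (173 ± 9.84), Agt (88.6 ± 17.9), Edn1 (54.2 ± 6.27) and Edn3 (16.7 ± 3.12). The receptor order differed between the TAC groups, with Ednrb above Ednra on the control diet and below it on the BCAA-free diet.

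**Figure D1:**
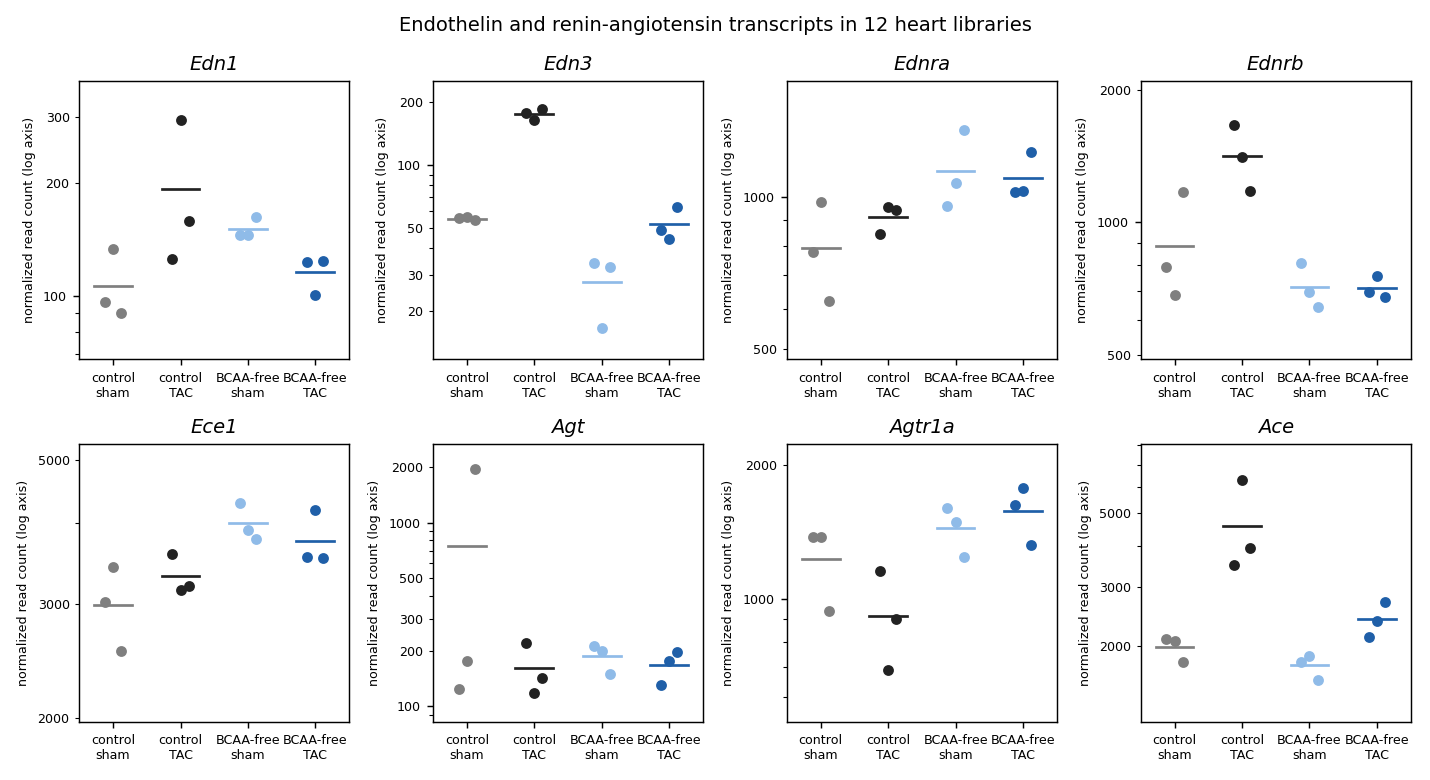
Normalized read counts (log axis) of the 8 members in 12 libraries on 1 common scale, by group; points are libraries and bars are group means (n = 3). Edn3 and Ace stand higher in control diet TAC than in every other group, and 1 control diet sham library carries an Agt value far above the rest.

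TAC on the control diet was compared with sham to see how both systems changed with pressure load. Edn3 and Ace rose, 2 of the 8 members, where 4.04% of the 15397 genes tested were called. Edn1 and Ednrb had positive fold changes that did not pass the threshold. Groups did not overlap for 2 members, against 35.2% of all genes tested, so that separation alone is common here.

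Edn3, which encodes the endothelin 3 precursor, read 51.4, 51.6 and 50.9 in control diet sham and 163, 151 and 171 in control diet TAC. The sham values rest on 59, 40 and 37 reads, so their narrow spread is not read as a trait of the group. All 3 TAC libraries were about equally far above them. This was a 3.11-fold rise, 1.64 ± 0.16 on the log2 scale (adjusted p = 0.0129). Leaving out control diet sham replicate 1 or 2 or control diet TAC replicate 3 ended the call (adjusted p = 0.083, 0.0778 and 0.0633) with nearly the same size.

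Edn1, the precursor of the main vascular endothelin, read 88.8, 122 and 83.9 after sham and 115, 269 and 146 after TAC. The groups overlapped, and the highest TAC library was replicate 2. With a log2 fold change of 0.77 ± 0.30 it was not called (adjusted p = 0.139); a fit over all 12 libraries gave an adjusted p of 0.044.

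Of the receptors, Ednrb, encoding the B-type receptor, read 730, 626 and 1091 after sham and 1530, 1291 and 1085 after TAC. Only the third library of each group kept the ranges from separating. Across genes, each library's log2 deviations from the gene means over the 12 libraries were compared with transcript length. The third sham library had a rank correlation of -0.41, the lowest of the 12, against 0.11 and 0.20 in the others of its group. In the third TAC library it was 0.25. The part of this trend in the Ednrb values was not tested. The log2 fold change of Ednrb was 0.70 ± 0.21 (adjusted p = 0.0724). The 12-library fit and DESeq2 on recovered reads put it past the threshold (adjusted p = 0.0131 and 0.0214). With GC and length trends removed Ednrb was not called. In the authors' deposited table it stood at 0.67 with an adjusted p of 0.0217. Ednra, the A-type receptor, ranged from 579 to 896 after sham and from 775 to 878 after TAC, a log2 fold change of 0.22 ± 0.16 (adjusted p = 0.385). The opposite-strand gene 4933431K23Rik shares exon bases with Ednra, as do Gm47118 with Edn1 and Gm11651 with Ace, and whether reads were counted by strand is not given in the sources used here. Ece1, the endothelin-converting enzyme, was at 2760 ± 388 and 3041 ± 218 (log2 fold change 0.15 ± 0.13, adjusted p = 0.476).

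Ace read 1932, 1898 and 1662 after sham and 3213, 5775 and 3630 after TAC on the control diet. Every TAC library was above every sham library, with replicate 2 highest. The log2 fold change of 1.16 ± 0.20, a 2.23-fold rise, passed the threshold (adjusted p = 0.0378). The call was lost without control diet sham replicate 1, 2 or 3 or control diet TAC replicate 3 (adjusted p = 0.114, 0.107, 0.0722 and 0.0708), while the log2 fold change over all libraries left out in turn stayed between 0.90 and 1.33. Agtr1a, the receptor through which angiotensin II constricts vessels, ran the other way in sign, from 874 to 1268 after sham and from 634 to 1060 after TAC, with overlapping groups and a value of -0.44 ± 0.21 (adjusted p = 0.194).

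For Agt, which encodes angiotensinogen, 1 library decided the value of this comparison. Control diet sham replicates 1, 2 and 3 read 114, 162 and 1811, the last from 1316 reads, and the TAC libraries read 203, 109 and 131. The log2 fold change of -1.17 ± 0.99 (adjusted p = 0.48) became 0.07 without replicate 3. That library had the lowest rank correlation of its deviations from the gene means with transcript length. With all libraries and with GC and length trends removed the log2 fold change was -1.13 (adjusted p = 0.482). In the same library the summed adipocyte markers (6 of 7 listed genes) were the highest of the 12 libraries at 18168, beside 11370 and 14046 in the other control diet sham libraries. That sum is nearly all Fabp4 (17877), a gene that capillary endothelium also expresses. Adipoq, Plin1, Cidec and Cfd, singled out after their values were seen, had their lowest group means in control diet sham (31.6, 40.4, 41.2 and 111 on the same scale). Retn had its lowest mean in control diet TAC (11.7, beside 13.2 in control diet sham). Fabp4 had its lowest in BCAA-free sham (13014.9, beside 14290.5 in control diet sham). The highest value in any control diet sham library was 36.9 for Adipoq, 51.0 for Plin1, 48.7 for Cidec, 161 for Cfd and 19.2 for Retn. Replicate 3 was at or below each of these values. BCAA-free sham replicate 1 had a near-equal adipocyte sum of 17357, with Agt at 189 in the comparison of the diets after sham. The hepatocyte genes Alb, Apoa1 and Serpina1a had no row in the tables. The part of other cells in this value was not tested.

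With TAC on the control diet 2 of 7 smooth muscle markers rose (Tagln and Cnn1) and 1 fell (Smtn), with sums from 16792 to 17475 after sham and from 15232 to 18072 after TAC. Smtn was the largest part of these sums, with a mean of 9285 after sham and 6153 after TAC on the same scale. Myh11, Lmod1 and Mylk were higher after TAC without overlap and were not called. Of the other marker lists, 3 of 9 fibroblast, 1 of 9 macrophage, 1 of 7 pericyte and 1 of 4 mast cell markers rose, 1 of 8 cardiomyocyte markers fell, and none of 12 endothelial markers was called. Summed macrophage markers ran from 5715 to 8056 after sham and from 7660 to 8748 after TAC, on the common scale of the 12 libraries. Fibroblast sums ran from 65694 to 76231 and from 78544 to 99424, endothelial sums from 43634 to 45063 and from 49066 to 50779, and cardiomyocyte sums from 2486588 to 2585865 and from 1794678 to 2218261, none of these 3 with overlap. Pericyte sums (28849 to 38171 and 39464 to 41253) and mast cell sums (142 to 220 and 345 to 388) did not overlap either. Most of the mast cell sum was Kit, with a mean of 118 after sham and 278 after TAC. Cpa3 (10.2 and 11.5), Tpsb2 (23.5 and 28.9) and Mcpt4 (17.8 and 27.9) had higher means after TAC, and Cma1 a lower one (21.3 and 14.6). The part of these cells in the values of Edn3 and Ace was not tested.

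**Figure D2:**
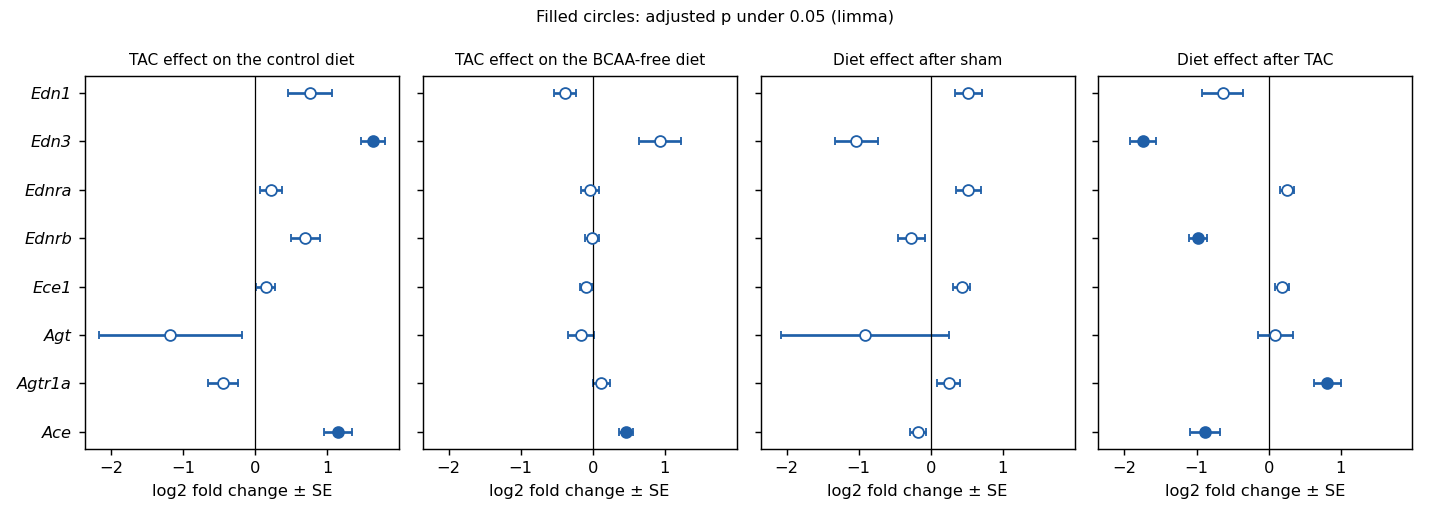
Log2 fold changes (± SE) of the 8 members in the 4 comparisons, with filled circles for adjusted p under 0.05 by limma. Edn3 and Ace lie at 1.64 and 1.16 for TAC on the control diet and at -1.75 and -0.88 for the diet after TAC; the wide bars of Agt belong to comparisons that use control diet sham.

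TAC on the BCAA-free diet was compared with its own sham group. Ace rose, and no other member passed, where 6.23% of 15670 genes tested were called. Ace read 1945, 2028 and 1722 after sham and 2312, 2572 and 2942 after TAC, with no overlap. The log2 fold change was 0.45 ± 0.10, a 1.37-fold rise (adjusted p = 0.0243). It was lost without BCAA-free sham replicate 1 or 2 or BCAA-free TAC replicate 2 or 3 (adjusted p = 0.0669, 0.0703, 0.0621 and 0.113), in the 12-library fit (0.194), and with trends over GC content and transcript length removed (log2 fold change 0.38, adjusted p = 0.0979). A library's log2 deviations from the gene means over the 12 libraries were also ranked against GC content. Their rank correlation was 0.20, 0.40 and 0.39 in the BCAA-free TAC libraries and from -0.22 to 0.038 in the others. With transcript length it was -0.30, -0.12 and -0.36 in the BCAA-free TAC libraries. Such deviations are relative, so a trend in some libraries also shifts the others. Of the cell type markers, 2 of 9 macrophage, 1 of 8 cardiomyocyte and 1 of 5 blood cell markers rose with TAC on this diet. A fall was called for 2 of 7 pericyte, 1 of 12 endothelial and 1 of 7 Schwann cell markers, and of 9 fibroblast markers 1 rose and 1 fell. Their part in the Ace value was not tested.

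Edn3 read 36.9, 18.2 and 35.3 after sham and 53.3, 47.7 and 68.6 after TAC on this diet. The groups did not overlap, and the low sham value came from 7 reads in the shallowest library. Its log2 fold change was 0.93 ± 0.30 (adjusted p = 0.079). Edn1 read 157, 159 and 177 after sham against 134, 109 and 135 after TAC, again without overlap, a log2 fold change of -0.39 ± 0.15 (adjusted p = 0.142). Separation of this kind was found for 3 members and for 29.5% of all genes tested.

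The receptors and Ece1 showed no call on this diet. Ednrb was at 777 ± 91.1 after sham and 770 ± 40.8 after TAC (log2 fold change -0.01 ± 0.10, adjusted p = 0.973). Ednra was at 1227 ± 226 and 1186 ± 130 (-0.04 ± 0.13, adjusted p = 0.89), Ece1 at 4339 ± 290 and 4071 ± 386 (-0.09 ± 0.08, adjusted p = 0.533), and Agtr1a at 1571 ± 197 and 1710 ± 244 (0.12 ± 0.12, adjusted p = 0.584). Agt ran from 162 to 230 after sham and from 141 to 214 after TAC, with overlapping groups (log2 fold change -0.17 ± 0.18, adjusted p = 0.626). The signs of Ednra and Ednrb here turned with the GC correction, so no direction is read from them.

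The diet was compared in sham-operated hearts, where 95 of 15217 genes tested (0.624%) were called and none of them was a member. By edgeR and by DESeq2 the count was also 0. At an unadjusted p under 0.05, 4 members passed: Edn1, Edn3, Ednra and Ece1. Edn3 read 49.6, 49.9 and 48.7 on the control diet and 30.3, 15.0 and 29.0 on the BCAA-free diet, a log2 fold change of -1.03 ± 0.30 (adjusted p = 0.13); the 12-library fit called it (adjusted p = 0.0412). Every BCAA-free library lay below every control library. Edn1 ran the opposite way, from 85.8, 119 and 80.4 to 129, 130 and 145, also without overlap (log2 fold change 0.52 ± 0.19, adjusted p = 0.21).

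Ece1 read 2686, 3040 and 2262 against 3829, 3490 and 3371, a separation of the groups with a log2 fold change of 0.43 ± 0.12 (adjusted p = 0.119). Groups that did not overlap were found for these 3 members and for 23.0% of all genes tested. Ednra overlapped slightly, from 555 to 868 on the control diet and from 856 to 1214 on the BCAA-free diet (log2 fold change 0.52 ± 0.17, adjusted p = 0.181). Ednrb (-0.27 ± 0.18, adjusted p = 0.501), Ace (-0.18 ± 0.11, adjusted p = 0.443) and Agtr1a (0.25 ± 0.16, adjusted p = 0.459) had smaller log2 fold changes with overlapping groups. Agt was again set by control diet sham replicate 3: its log2 fold change was -0.91 ± 1.17 with that library and 0.33 without it.

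Cell type markers in the sham hearts gave calls in the smooth muscle and fibroblast lists. Of 7 smooth muscle markers 3 were higher on the BCAA-free diet (Myh11, Lmod1 and Mylk; list median 0.74), with sums from 17524 to 19906 against 16792 to 17475 on the control diet. Smtn, the largest part of these sums, had a lower mean on the BCAA-free diet (7548 against 9285). Of 9 fibroblast markers 1 was lower, with sums from 61612 to 65098 against 65694 to 76231. Sums without overlap and without a call were also seen for macrophage markers (4763 to 4860 against 5715 to 8056) and endothelial markers (46542 to 49300 against 43634 to 45063). The part of these cells in the values of Edn1, Edn3, Ednra and Ece1 was not tested.

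The diet was then compared after TAC, the comparison with the most calls. Edn3, Ednrb and Ace were lower and Agtr1a was higher on the BCAA-free diet, 4 of the 8 members; all 15872 genes tested gave 34.2% called. Groups did not overlap for 6 members (all but Ece1 and Agt), against 50.8% of all genes tested. With 34.2% of all genes called, the count of members is not a result about them, and the sizes are described gene by gene. These fold changes use the same control diet TAC libraries as the comparison of TAC with sham on that diet.

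Edn3 read 199, 183 and 208 on the control diet and 55.2, 49.5 and 71.1 on the BCAA-free diet. The highest BCAA-free library was far below the lowest control library. The log2 fold change was -1.75 ± 0.18, a level 0.298 times that of the control diet (adjusted p = 0.000695), and it was called without each of the 6 libraries in turn (adjusted p up to 0.00744). Edn1 read 141, 328 and 178 against 139, 113 and 140: the groups separated, but by a narrow gap between control diet replicate 1 and BCAA-free replicate 3. Its log2 fold change was -0.63 ± 0.28 (adjusted p = 0.118); without control diet TAC replicate 1 it was -0.89 and called (adjusted p = 0.0267). In the authors' deposited table it was -0.72 with an adjusted p of 0.0379.

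Ednrb read 1872, 1569 and 1322 against 781, 848 and 767, with no overlap. Its log2 fold change of -0.98 ± 0.12, a level 0.508 times that of the control diet, was called (adjusted p = 0.00127) and remained so without each library in turn (adjusted p up to 0.0101). Ednra differed in sign: it read 949, 1068 and 1057 against 1153, 1151 and 1385, again without overlap, a log2 fold change of 0.26 ± 0.10 that missed the threshold (adjusted p = 0.0661) and passed it with GC and length trends removed (0.32, adjusted p = 0.0366) or without control diet TAC replicate 2 (0.29, adjusted p = 0.0475). Ece1 was at 3707 ± 279 and 4222 ± 405 with overlapping groups (0.19 ± 0.09, adjusted p = 0.152).

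Ace read 3932, 7019 and 4421 on the control diet and 2396, 2671 and 3050 on the BCAA-free diet. The groups did not overlap, and the log2 fold change was -0.88 ± 0.21, a level 0.543 times that of the control diet (adjusted p = 0.0183). Agtr1a was the only member called in the other direction: it read 1298, 770 and 1006 against 1827, 1996 and 1498, without overlap, a 1.76-fold rise with a log2 fold change of 0.81 ± 0.19 (adjusted p = 0.0151). Both calls were lost by a small margin without BCAA-free TAC replicate 1 (adjusted p = 0.0614 for Ace and 0.0534 for Agtr1a) or replicate 2 (0.0509 and 0.0512). Under the 8 alternatives that keep every library, among them the removal of GC and length trends, the 4 calls remained (highest adjusted p of 0.0028 for Edn3, 0.00333 for Ednrb, 0.0187 for Ace and 0.0209 for Agtr1a). Agt, with 249, 132 and 160 against 147, 197 and 222, overlapped, at 0.09 ± 0.25 on the log2 scale (adjusted p = 0.793). Its sign turned with 2 of the 6 libraries left out, so no direction is read from it.

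Cell type markers moved alongside in this comparison. Of 9 macrophage markers, 7 were lower and 1 higher, with a summed level from 5253 to 6334 on the BCAA-free diet and from 7660 to 8748 on the control diet after TAC, on the same scale. Of 9 fibroblast markers 6 were lower, with sums from 62447 to 70829 and from 78544 to 99424. Among 12 endothelial markers 6 were lower and 2 higher, and the sums overlapped (44063 to 49506 and 49066 to 50779). Cardiomyocyte markers were higher for 6 of 8, with sums from 2799076 to 2863000 and from 1794678 to 2218261. Smooth muscle markers were higher for 4 of 7, with sums from 19163 to 20988 and from 15232 to 18072, and Schwann cell markers for 3 of 7, with sums from 575 to 654 and from 371 to 466. Smtn was the largest part of the smooth muscle sums (mean 8580 on the BCAA-free diet and 6153 on the control diet). Tagln (817 and 879), Cnn1 (282 and 337) and Acta2 (4617 and 5007) had lower means on the BCAA-free diet. Those of Myh11, Lmod1 and Mylk were higher. Pericyte markers were lower for 2 of 7 (31907 to 36861 and 39464 to 41253) and mast cell markers for 1 of 5 (200.1 to 215 and 345 to 388). Kit was most of the mast cell sum (mean 124 on the BCAA-free diet and 278 on the control diet). The means of Cpa3 (9.72 and 11.5) and Tpsb2 (25.7 and 28.9) were lower, and those of Cma1 (20.1 and 14.6) and Mcpt4 (29.0 and 27.9) higher. Atrial markers were higher for 3 of 6, with sums from 11641 to 23105 and from 8180 to 11193. Adipocyte markers were higher for 1 of 6 (median log2 fold change 1.46) and blood cell markers for 1 of 5 (median -0.05), both with overlapping sums. Mesothelial markers were lower for 1 of 6, while the median log2 fold change of that list was 1.345. Of the markers in these lists with a row in the table, none was at 0 in any of the 6 libraries. The part of these cell types in the fold changes of Edn3, Ednrb, Ace and Agtr1a was not tested.

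The difference between the diets in the TAC effect was tested itself, as the interaction of diet and surgery over 12 libraries. Of 15195 genes tested, 8.65% were called and no member was. At an unadjusted p under 0.05, 3 members passed (Edn1, Ednrb and Ace); edgeR on recovered reads called none and DESeq2 called 4. Edn1 had the interaction with the smallest p, -1.15 ± 0.36 on the log2 scale (adjusted p = 0.0565; 0.013 by DESeq2): its fold change with TAC was positive on the control diet and negative on the BCAA-free diet. Ednrb (-0.71 ± 0.25, adjusted p = 0.085), Ace (-0.70 ± 0.24, adjusted p = 0.0847) and Edn3 (-0.70 ± 0.35, adjusted p = 0.2) were of like size. Agtr1a was positive (0.56 ± 0.27, adjusted p = 0.185). Leaving out control diet sham replicate 2 or control diet TAC replicate 1 put Edn1 past the threshold (adjusted p = 0.041 and 0.0184), as did leaving out control diet sham replicate 3 for Ednrb (0.0145) and control diet TAC replicate 1 for Ace (0.0278). With all 12 libraries, a smaller TAC effect on the BCAA-free diet is not shown by limma for any member.

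Ratios of reads per base between members within a library put ligands, receptors and enzymes side by side without a scaling between libraries, and are given as description. GC and length trends were not removed from them. Rank correlations with transcript length were 0.23, 0.16 and 0.25 in control diet TAC and -0.30, -0.12 and -0.36 in BCAA-free TAC. The longest transcript served as length, so a ratio near 1 also depends on that choice. Ednra over Ednrb was 0.574, 0.771 and 0.906 in control diet TAC and 1.67, 1.54 and 2.05 in BCAA-free TAC, so the B-type receptor transcript was the more abundant in every control diet TAC library and the A-type in every BCAA-free TAC library. In control diet sham this ratio spread from 0.602 to 1.62 and in BCAA-free sham from 1.35 to 2.40. Edn1 over Edn3, the pair of ligand transcripts, was 2.79 ± 0.581 in control diet sham, 1.63 ± 0.851 in control diet TAC and 3.28 ± 0.392 in BCAA-free TAC. It was highest in BCAA-free sham, from 6.22 to 12.7, above every library of the other 3 groups; the value of 12.7 rests on 7 Edn3 reads. Agtr1a over Ace was lowest in control diet TAC, from 0.245 to 0.736, below every library of the other 3 groups (1.10 to 1.99).

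**Figure D3:**
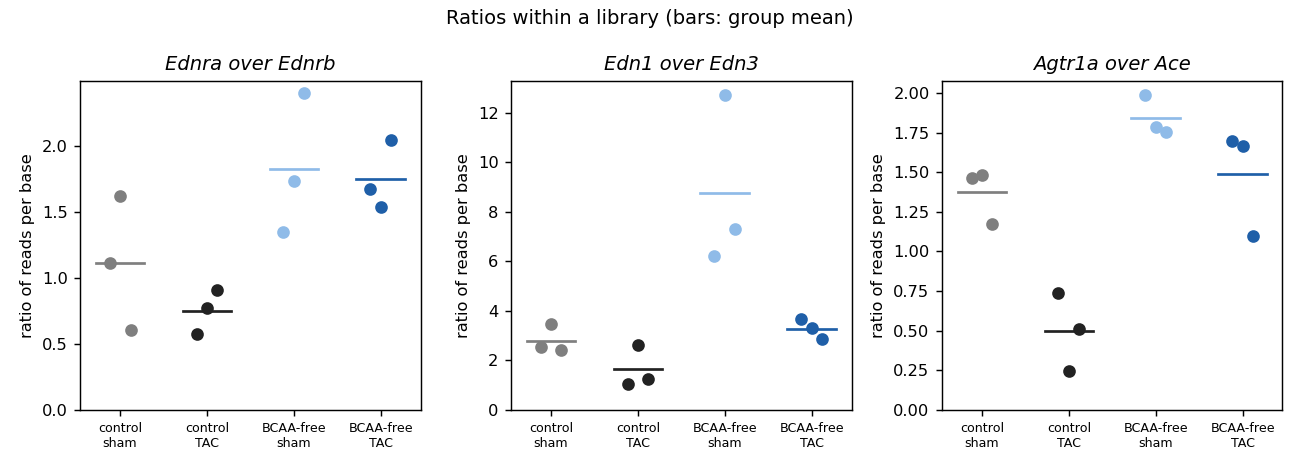
Ratios of reads per base of transcript within each library (points) with group means (bars, n = 3) for Ednra over Ednrb, Edn1 over Edn3 and Agtr1a over Ace. In control diet TAC the Ednra over Ednrb ratio is under 1 in all 3 libraries, and in BCAA-free TAC it is from 1.54 to 2.05. GC and length trends were not removed.

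The remaining genes of the endothelin list (8 of 10 had a row; Edn2 and Ecel1 did not) were Ece2, a second converting enzyme, Mme, which encodes the peptide-degrading neprilysin, and Ctsa, a lysosomal carboxypeptidase. Over this list 1 gene rose and none fell with TAC on the control diet (median log2 fold change 0.34), none rose and 1 fell on the BCAA-free diet (median -0.03), and none rose and 3 fell with the BCAA-free diet after TAC (median -0.32). Those 3 of 8 are near the 34.2% called among all genes. For the diet after sham no gene of the list was called (median -0.15). Over all genes tested the medians lay between -0.0047 and 0.0014 in these 4 comparisons. Ece2 was lower on the BCAA-free diet after TAC (-0.71 ± 0.20, adjusted p = 0.0231), and Mme was lower after TAC on the BCAA-free diet (-0.51 ± 0.14, adjusted p = 0.0461). Ctsa was called in none of the 5 comparisons, with log2 fold changes of 0.09 ± 0.13 for TAC on the control diet and 0.01 ± 0.10 for the diet after TAC.

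For the renin-angiotensin list 18 of 22 genes had a row; Ren1, Agtr1b, Agtr2 and Ctsg did not. With TAC on the control diet 2 rose, Ace and Prcp (0.82 ± 0.18, adjusted p = 0.0451), a carboxypeptidase that cuts angiotensin II, and none fell (median 0.10). On the BCAA-free diet 1 rose (Ace) and 1 fell with TAC, the angiotensin IV-binding aminopeptidase Lnpep (-0.56 ± 0.11, adjusted p = 0.0193; median 0.09). No gene of the list was called for the diet after sham (median -0.15).

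With the BCAA-free diet after TAC 1 rose (Agtr1a) and 7 fell (median -0.16). Besides Ace these were peptidases that process angiotensins: Prcp (-1.12 ± 0.13, adjusted p = 0.00115), Enpep, or aminopeptidase A (-0.70 ± 0.11, adjusted p = 0.00234), Nln (-0.60 ± 0.10, adjusted p = 0.00298), Lnpep (-0.98 ± 0.17, adjusted p = 0.005), Prep (-0.28 ± 0.07, adjusted p = 0.0129) and Dpp3 (-0.32 ± 0.10, adjusted p = 0.0354). The list share of 8 in 18 stands beside the 34.2% called among all genes. Among those not called were the angiotensin 1-7 receptor gene Mas1 (0.28 ± 0.32), the prorenin receptor gene Atp6ap2 (-0.24 ± 0.08), Agtrap (-0.09 ± 0.08), which binds the type 1 receptor, Anpep (-0.29 ± 0.11), Thop1 (0.20 ± 0.11) and Ctsd (0.01 ± 0.09). The mast cell proteases Cma1 (0.72 ± 0.59) and Mcpt4 (0.01 ± 0.29) were also not called, at means from 16.3 to 32.7.

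**Figure D4:**
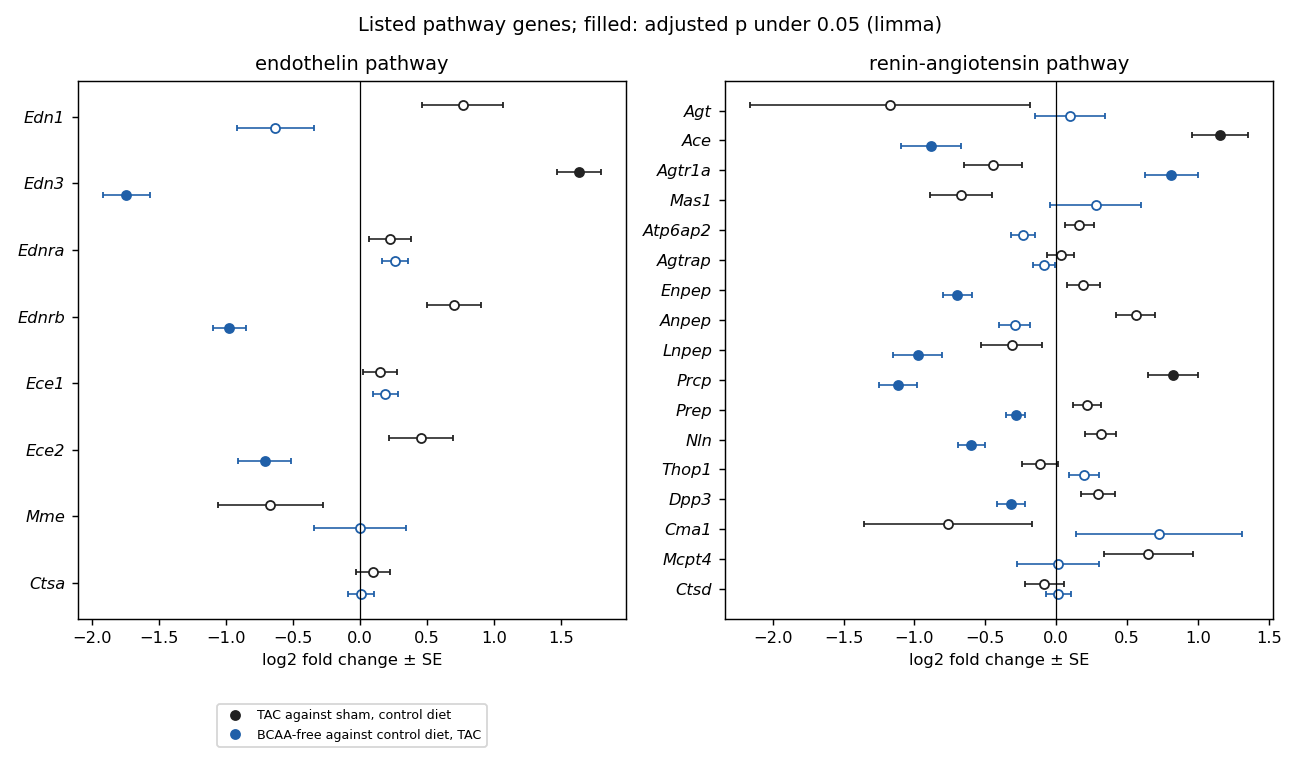
Log2 fold changes (± SE) of endothelin and renin-angiotensin list genes with a row, for TAC on the control diet (black) and the BCAA-free diet after TAC (blue), filled where adjusted p was under 0.05. A group of 7 renin-angiotensin genes are filled to the left of 0 in blue, and Agtr1a alone is filled to the right.

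The mineralocorticoid genes (4 of 6 with a row: Nr3c2, Hsd11b1, Sgk1 and Scnn1a) had no call in any comparison. Of the kinin branch only Cpm and Cpd had a row; Cpd, a carboxypeptidase, was lower on the BCAA-free diet after TAC (-0.59 ± 0.07, adjusted p = 0.00108) and the kinin receptors had none.

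Downstream of both receptors, 23 of 24 Gq signalling genes were tested. None was called with TAC on the control diet (median 0.21), 1 rose and 4 fell on the BCAA-free diet (median -0.17), and 2 rose and 12 fell with the BCAA-free diet after TAC (median -0.28). Among all genes 4.04%, 6.23% and 34.2% were called in these comparisons. The kinase gene Prkca (-0.62 ± 0.09, adjusted p = 0.0018), the G protein gene Gna13 (-0.72 ± 0.09, adjusted p = 0.00124), Rock2, a further kinase gene (-0.54 ± 0.09, adjusted p = 0.00307), Itpr2, which encodes a calcium release channel (-0.58 ± 0.10, adjusted p = 0.00403), and the phospholipase gene Plcb1 (-0.78 ± 0.15, adjusted p = 0.00617) were lower in that comparison. Rgs2, an inhibitor of Gq, was higher (1.28 ± 0.18, adjusted p = 0.0024). For the interaction 9 of the 23 were called, all negative, beside 8.65% of all genes. Single genes of this list were not followed with GC and length trends removed.

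Genes known to respond to angiotensin II and endothelin, though also to load itself, were counted from a list of 16. With TAC on the control diet 9 rose and none fell (median 1.83), and on the BCAA-free diet 4 rose and none fell (median 0.52). Summed over the list, control diet TAC replicate 2 stood apart at 477111, beside 180343 and 213887 in replicates 1 and 3. With the BCAA-free diet after TAC 1 rose and 8 fell (median -1.15). The shares called among all genes were again 4.04%, 6.23% and 34.2%. Acta1 (-2.60 ± 0.22, adjusted p = 0.000593), Cybb, a subunit of the phagocyte oxidase (-1.02 ± 0.12, adjusted p = 0.00107), Rcan1, a calcineurin target (-1.55 ± 0.22, adjusted p = 0.00308), and the natriuretic peptide gene Nppb (-1.50 ± 0.23, adjusted p = 0.00375) had the smallest p-values there. Nox4, an oxidase gene, rose with TAC on the control diet by 2.34 ± 0.33 (adjusted p = 0.0339) on the log2 scale.

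The genes whose values most resembled each member's were ranked by Pearson's r of log2 values over 12 libraries, which share the 4 groups, among 10710 or 10711 named genes. Nearest to Edn3 were Selplg (r = 0.96), Atp8a2 (0.96) and the macrophage receptor gene Csf1r (0.96), and to Ednrb Fam107b (0.97), Arhgap25 (0.96) and the Fc receptor gene Fcgr2b (0.94). Ace was closest to Plcg2 (0.99) and the collagen genes Col8a1 and Col1a2 (0.98 and 0.98). In control diet TAC the highest library read 6297 for Ace (group mean 4581) and 29144 for Col1a2 (group mean 15935). A single high library can weigh on such an r. Edn1 went with Rnd3, Tbx18 and Serpinb9 (0.93, 0.92 and 0.91), Ednra with Card10, Zdhhc18 and Pcbp2 (0.93, 0.91 and 0.91), and Ece1 with Tgfbr3, Fry and Nedd4l (0.95, 0.94 and 0.94). Agtr1a was nearest to Pm20d1, Dpysl4 and Zadh2 (0.97, 0.97 and 0.96). For Agt the 3 were Yeats4, Snrpc and Laptm4a (0.91, 0.91 and 0.89), with 1 library far above the rest in Agt. Among the members themselves the highest r were Edn3 with Ace (0.87) and Edn3 with Ednrb (0.83), and the lowest was Ednrb with Agtr1a (-0.74).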

How the data were processed

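The members and the gene lists were chosen with earlier results of these data known. The submitters' processing notes name Trimmomatic 0.36, STAR 2.5.2b and Subread 1.5.2, further DESeq2, GRCm38 and mm10, without a role for any of them. Each of the 4 tables that the authors deposited compares 2 groups of 3 libraries and gives a signal per gene and library, a normalized read count that equals whole reads times 1 step per library and table (100% of values within 0.01 of a whole read). A library had the same reads in both of its tables. The log2 fold changes and p-values in these tables are the authors' own. Because the tables had been normalized separately, tests of 1 group against another stayed within a table, except in the 12-library fit, which rescaled recovered reads jointly.

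The main test was limma 3.58.1 (R 4.3.3, statmod 1.5.0; trended and robust variances) on log2(value + 1) for genes with a mean value of 10 or more, with Benjamini-Hochberg adjustment across the genes of the table; the interaction took the 12 libraries of the tables that set TAC against sham. Levels and ratios used recovered reads of 12 libraries, median-of-ratios factors (DESeq2 1.42.0) and transcript lengths of GENCODE M21 on GRCm38, which matched 99.8% of IDs. Promoter windows came from RefSeq. The fits were tested on simulated counts. All members were named in every comparison, genes of the endothelin and renin-angiotensin lists were given, and other lists named up to 6 called genes with the smallest p, some of which are left out here. Alternatives were TMM rescaling, dropping the filter, a larger pseudocount (10), a block for the replicate number, edgeR 4.0.16 and DESeq2 on recovered reads, limma on 12 libraries, removal of GC and length trends, and each library left out.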

Additional observations from a re-analysis of the deposited data

Results flagged for a closer look

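No member met the threshold for a TAC effect that differed between the diets. Of the listed pathway genes, 13 did in the interaction test of limma, as the log2 change with TAC on the BCAA-free diet minus that on the control diet, with 12 libraries. In the Gq signalling list the values were -0.68 for Gnaq, -0.96 for Plcb1, -0.56 for Plcb4, -0.45 for Prkca, -0.57 for Itpr2, -0.58 for Arrb1, -0.85 for Grk5, -0.55 for Rock1 and -0.51 for Rock2, with adjusted p from 0.0189 (Plcb1) to 0.0427 (Rock2). Among response genes, Nox4 stood at -2.18 (adjusted p = 0.0234), Rcan1 at -0.95 (adjusted p = 0.0485) and Cyba at 0.58 (adjusted p = 0.0441). Cpd, of the kinin branch, was at -0.59 (adjusted p = 0.0401). Over all genes tested 8.65% were called in this comparison. The BCAA-free TAC libraries in this contrast had the highest rank correlations with GC content of the 12 libraries (0.20, 0.40 and 0.39). The 13 genes were not followed with GC and length trends removed, a setting that lowered the calls over all genes.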

How the results depend on the processing

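Of 600 values of the 8 members under the alternatives, 552 kept their direction and their side of the threshold. Calls over all genes were 2203 (TAC, control diet), 1490 (TAC, BCAA-free diet), 531 (diet after sham) and 2229 (interaction) by DESeq2, which also called 4 members for the interaction. With limma on all 12 libraries they were 2992, 65 and 351 for the first 3 comparisons, with 4, 0 and 1 members called. With GC and length trends removed they were 85 for TAC on the BCAA-free diet (0 members), 364 for the diet after sham and 444 for the interaction; log2 fold changes that turned sign were those of Ednra (0.016) and Ednrb (0.12) when TAC was compared on the BCAA-free diet, with Agt (-0.074) for the diet after TAC.

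With 1 library left out, calls ran from 0 to 1091 (TAC, control diet), 48 to 1184 (TAC, BCAA-free diet), 6 to 475 (diet after sham), 3369 to 5269 (diet after TAC) and 216 to 1733 (interaction), and members called from 0 to 2, 0 to 1, 0 to 0, 2 to 5 and 0 to 2. Sign changes came with Agt, from -1.92 to 0.068 (TAC, control diet), -0.32 to 0.0033 (TAC, BCAA-free diet), -1.66 to 0.33 (diet after sham), -0.10 to 0.35 (diet after TAC) and -0.23 to 1.75 (interaction), and with Ednra (-0.15 to 0.10) and Ednrb (-0.083 to 0.082) when TAC was compared on the BCAA-free diet. The cause of these moves was not tested, except that leaving out a library leaves fewer samples.

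Same-numbered replicates did not deviate together across genes (correlation from -0.18 to 0.08). Whether the numbers pair samples is not given in the labels, and these correlations cannot tell. With the replicate block 143 genes were called for the diet after sham, and member calls stayed at 2, 1, 0, 4 and 0. Depth limits Edn3 most, with 7 reads in 1 library.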
